A study of Sus scrofa with 9 samples.

Results

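The genes described here are those linked to defective enamel or mineralization in patients or animals, but whose products are not proteins of the enamel matrix. Their names were FAM20A, FAM20B, FAM20C, FAM83H, WDR72, CNNM4, RELT, SLC4A4 and SLC13A5. They were looked for by symbol among the 34580 genes and transcripts of the expression table, and 7 of the 9 were found. For FAM20C, the NCBI RefSeq gene ID of the pig gene pointed to the entry LOC100737907, which is described beside the members and is not counted among them. FAM83H was not analysed here. The tissue was the germ of a mandibular deciduous molar (Dm3) of miniature pig embryos. Total RNA was sequenced at embryonic days 40 (E40), 50 (E50) and 60 (E60), which correspond to the cap, the early bell and the late bell form of the germ, with 3 libraries at each age. No genotype or treatment separated the groups. All fetuses were removed by cesarean section from sows under ketamine and xylazine anesthesia, and whole germs were taken, so that each library mixed dental epithelium, mesenchyme and whatever tissue came with them. Neither the breed, the sex, nor the number of animals behind a library is given in the sources used here, so that p-values measure the spread between these libraries.

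Enamel is laid down by ameloblasts, epithelial cells that first secrete a protein matrix and later remove it while they move ions and neutralize the acid that growing crystals release. Secreted matrix proteins are phosphorylated in the Golgi by the kinase FAM20C, whose activity is raised by its pseudokinase partner FAM20A, while the related kinase FAM20B phosphorylates a xylose in the stem that anchors glycosaminoglycans to proteoglycans. SLC4A4 carries sodium and bicarbonate, SLC13A5 carries citrate, CNNM4 moves magnesium, WDR72 takes part in the vesicle traffic of maturing ameloblasts, RELT is a receptor of the tumor necrosis factor family, and FAM83H tethers casein kinase 1 to keratin filaments.

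Expression was measured as FPKM, the fragments mapped to a gene, scaled to its length and to the total of the library. Each FPKM value was a whole multiple of the value of 1 read, from which the reads were recovered. The libraries fell into 2 sets by depth. The 3 E50 libraries and E60 replicate 1 held between 14362235 and 16674750 reads, and the 3 E40 libraries and E60 replicates 2 and 3 held between 938527 and 1760356. Across the 19618 genes and transcripts tested, Pearson's r of log2(FPKM + 0.1) was 0.959 to 0.983 between deep libraries, 0.743 to 0.838 between shallow ones and 0.301 to 0.609 between the sets, so that E60 replicate 1 stood with E50 and not with the other 2 libraries of its own stage. The 10 most abundant entries took 8.32% to 14.4% of the reads of a deep library and 33.2% to 56.3% of a shallow one. From E40 to E50, stage and library set cannot be told apart, and results are therefore given over all 9 libraries, over the 8 without E60 replicate 1 where this moves a call, and within each set. Ameloblast markers (AMBN, ENAM, AMEL, AMTN and ODAM, 5 of 6 listed) summed to 14.4 to 23.9 FPKM at E40, 21.4 to 23.9 at E50 and 3390 to 18300 at E60. The E60 sums came almost wholly from AMBN, ENAM and AMEL. AMTN went the other way from E50 (10.5, 11.6 and 15.6 FPKM) to E60 (4.83, 1.05 and 0.819), and ODAM reached at most 2.06. Odontoblast markers (DSPP, DMP1 and NES, all 3 listed) summed to 20.9 to 27.2, 36.2 to 41.6 and 202 to 500. NES made up most of the E40 and E50 sums and held 51.4, 11.2 and 27.0 FPKM at E60, while DSPP and DMP1 rose at E60. In such bulk tissue, a change in the number of cells of a type and a change in RNA per cell cannot be told apart. The dental epithelium markers, led by KRT5 and KRT14, summed to 3390 to 4870, 2400 to 3360 and 1350 to 4010, while CDH1 was listed at 0 in every library. Other marker sums moved with the step from E40 to E50, those of muscle from 38.6 to 59.7 FPKM down to 4.70 to 5.96, of bone from 46.8 to 67.4 down to 18.2 to 20.9, of dental mesenchyme from 1000 to 1480 up to 2760 to 3150 and of blood from 227 to 393 up to 728 to 1030. The bone markers (RUNX2, BGLAP, IBSP and SP7, all 4 listed) did not move together. RUNX2 fell from 38.0, 31.9 and 27.9 FPKM at E40 to 5.06, 5.29 and 5.67 at E50. At E60 it held 3.55, 20.3 and 11.7. SP7, as the entry LOC404701, rose from 2.46, 2.2 and 1.16 to 4.62, 3.5 and 3.75. BGLAP fell, and IBSP overlapped between E40 and E50. The part of the marker sums in the changes of the members at this step was not tested.

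The members fell into groups by the way their levels followed the libraries. FAM20A, RELT and SLC13A5 were low at E50 and high at E40 and in all 3 E60 libraries, including the deep one. FAM20B, CNNM4 and SLC4A4 were higher in every deep library than in every shallow one. WDR72 was close to the limit of detection. At E50, where depth was even, the order of levels was FAM20B (22.4 ± 0.542 FPKM, SD, n = 3), CNNM4 (9.53 ± 0.810), SLC4A4 (6.61 ± 1.02), FAM20A (4.77 ± 0.409), RELT (1.42 ± 0.216), SLC13A5 (0.346 ± 0.0682) and WDR72 (0.218 ± 0.102). No neighbors in this order overlapped at E50, although the lowest SLC13A5 library held 0.288 FPKM and the highest WDR72 library 0.286, which differ by less than counting error. FAM20B stood above 78.9% of all tested genes at E50, and SLC13A5 above 19.3%.

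**Figure D1:**
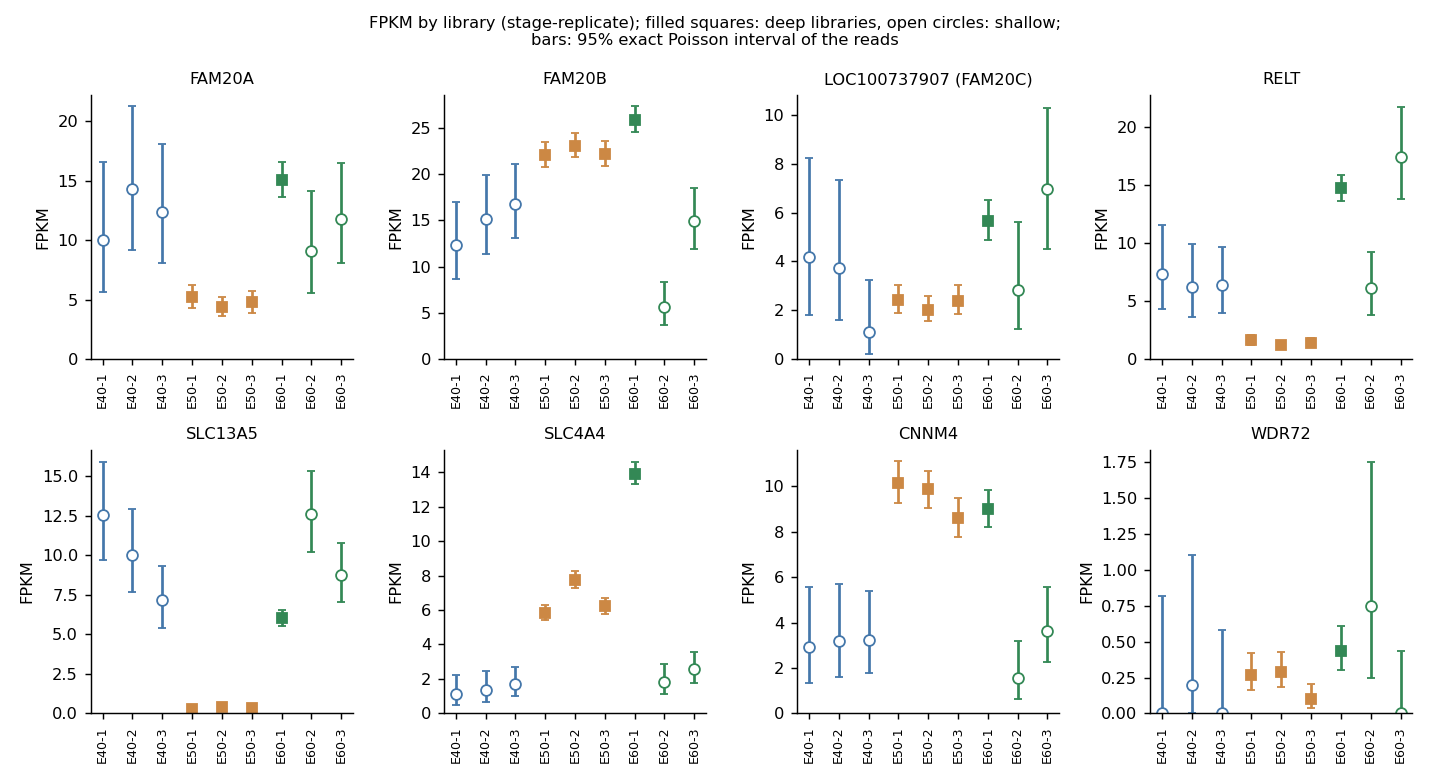
FPKM of each gene (vertical axis, from 0) in each library, named by stage and replicate, with the 95% exact Poisson interval of its reads. Filled squares are the 4 deep libraries and open circles the 5 shallow ones. RELT, SLC13A5 and FAM20A are lowest in the 3 E50 libraries, while CNNM4, FAM20B and SLC4A4 are higher in the 4 deep libraries than in the 5 shallow ones.

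SLC13A5, the citrate carrier of the plasma membrane, showed the largest log2 fold changes among the tested members, both into and out of E50. Its FPKM values were 12.5, 10.02 and 7.17 at E40 (replicates 1, 2 and 3), 0.288, 0.421 and 0.330 at E50, and 6.04, 12.6 and 8.78 at E60. Every E50 library lay below every other library, and E40 and E60 overlapped. The reads behind the E50 values were 24, 40 and 27, and those behind the E60 values 555, 99 and 88, so that the contrast did not rest on a few reads. SLC13A5 fell by 4.46 on the log2(FPKM + 0.1) scale from E40 to E50 (SE 0.46, limma with Benjamini-Hochberg adjusted p = 0.00315). It rose from E50 to E60 by 4.32 (SE 0.46, limma with Benjamini-Hochberg adjusted p = 0.0127). This rise did not pass when any E50 library or E60 replicate 3 was left out, nor in the fit of the compared stages alone, and the log2 fold change stayed between 4.22 and 4.44 in these fits. The E40 mean of 9.91 ± 2.69 FPKM and the E60 mean of 9.14 ± 3.29 (SD, n = 3) differed by less than the spread between libraries.

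RELT, the receptor, was also lowest at E50. Its values were 7.34, 6.19 and 6.37 FPKM at E40, 1.65, 1.22 and 1.39 at E50, and 14.7, 6.10 and 17.4 at E60. The 3 E50 libraries were again the lowest, and E60 replicates 1 and 3 were the highest, while E60 replicate 2 lay at the level of E40. RELT fell by 2.16 from E40 to E50 (SE 0.47, limma with Benjamini-Hochberg adjusted p = 0.0131). The fall did not pass without E40 replicate 1, E50 replicate 2 or E50 replicate 3, where it stayed between -2.06 and -2.15. From E50 to E60 its log2 fold change was 2.96 (SE 0.47, limma with Benjamini-Hochberg adjusted p = 0.0849), which missed the threshold over all 9 libraries and passed over the 8 without E60 replicate 1, where it was 2.79. It also passed with median-ratio scaling, at 3.70.

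FAM20A, the pseudokinase partner of FAM20C, was expressed in every library. Its values were 10.04, 14.3 and 12.3 FPKM at E40, 5.19, 4.37 and 4.77 at E50, and 15.0, 9.10 and 11.8 at E60. Again no E50 library reached the level of any E40 or E60 library, and the latter 2 stages overlapped. The E40 values rested on only 15 to 26 reads per library. FAM20A fell by 1.33 from E40 to E50 (SE 0.35, limma with Benjamini-Hochberg adjusted p = 0.0202). The fall did not pass without E40 replicate 1 or 2 or without any of the 3 E50 libraries, where it stayed between -1.21 and -1.46. Its log2 fold change from E50 to E60 was 1.28 (SE 0.35, limma with Benjamini-Hochberg adjusted p = 0.164). Without E60 replicate 1 it was 1.10 and passed, as it did with median-ratio scaling at 2.05.

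The kinase FAM20C itself, as the entry LOC100737907, was lower than its partner in all 9 libraries. It held 4.18, 3.73 and 1.11 FPKM at E40, 2.41, 2.03 and 2.39 at E50, and 5.65, 2.84 and 6.96 at E60. The 3 stages were not fully separate: every E60 library lay above every E50 library, and E40 spanned the E50 levels. Only 3 to 8 reads stood behind the E40 values, and LOC100737907 did not pass in any of the 3 comparisons over 9 libraries (log2 fold change -0.19 from E40 to E50, 1.06 from E50 to E60 and 0.86 from E40 to E60). With median-ratio scaling, its value was -0.83 into E50 and 1.80 out of it. Its value for the latter step was 0.94 over the 8 libraries without E60 replicate 1, and 1.98, which passed, with both changes.

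FAM20B, the xylose kinase, had the highest FPKM of the members in 6 of the 9 libraries. Its values were 12.3, 15.2 and 16.8 FPKM at E40, 22.1, 23.1 and 22.2 at E50, and 25.9, 5.66 and 14.9 at E60. All 4 deep libraries lay above all 5 shallow ones. From E40 to E50 it moved by 0.61 (SE 0.51, limma with Benjamini-Hochberg adjusted p = 0.336), against a median of 0.55 over all tested genes, and with median-ratio scaling it was -0.05. From E50 to E60 the log2 fold change was -0.78, against a median of -0.64 over all tested genes. Over the 8 libraries it was -1.28 and passed, against a median of -0.94, and with median-ratio scaling of these 8 it was -0.21 and did not.

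CNNM4, the magnesium transporter, was likewise higher in every deep than in every shallow library. It held 2.92, 3.19 and 3.22 FPKM at E40, 10.1, 9.87 and 8.61 at E50, and 8.99, 1.55 and 3.64 at E60. E60 replicate 1 lay among the E50 libraries and the other 2 near E40. Its log2 fold change was 1.58 from E40 to E50 (SE 0.58, limma with Benjamini-Hochberg adjusted p = 0.0568) and -1.33 from E50 to E60. Neither passed over 9 libraries, and both passed over the 8 without E60 replicate 1, where the second was -1.95. With median-ratio scaling of these 8 libraries they were 0.95 and -0.91 (limma with Benjamini-Hochberg adjusted p = 0.0116 and 0.0277). Neither passed, since both were below the limit of 1 in size.

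SLC4A4, the bicarbonate carrier, held 1.13, 1.38 and 1.70 FPKM at E40, 5.85, 7.77 and 6.22 at E50, and 13.9, 1.82 and 2.55 at E60. E60 replicate 1 was the highest of all 9 libraries, above each E50 library, while E60 replicates 2 and 3 lay just above E40. SLC4A4 rose by 2.17 from E40 to E50 (SE 0.71, limma with Benjamini-Hochberg adjusted p = 0.0393). The rise did not pass when any of the 6 libraries of these stages was left out, where it stayed between 2.03 and 2.30. It did not pass by limma-voom or without the filter on low values either, at 2.16 and 2.17. From E50 to E60 its direction depended on the libraries and the scaling: the log2 fold change was -0.68 over all 9 libraries, 0.07 with median-ratio scaling, and -1.56 without E60 replicate 1, where it passed.

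WDR72, of the vesicle traffic of maturation, did not pass the filter of at least 1 FPKM in at least 2 libraries and was not tested. It was listed at 0 in E40 replicates 1 and 3 and in E60 replicate 3, where a count of 0 allows up to 0.663, 0.470 and 0.353 FPKM. The other values were 0.197 FPKM (1 read) in E40 replicate 2, 0.269, 0.286 and 0.101 at E50 (19, 23 and 7 reads), and 0.437 and 0.751 in E60 replicates 1 and 2 (34 and 5 reads). The stages overlapped. The E50 levels lay below each of these limits, so that a difference between E40 and E50 was not detectable at this depth.

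Over all 9 libraries, 4 of the 6 members tested changed from E40 to E50, 1 of them upward (SLC4A4) and 3 downward (SLC13A5, RELT and FAM20A), beside 38.6% of all tested genes. A gene was called changed where its adjusted p lay below 0.05 and its log2 fold change was 1 or more in size. Over the 8 libraries the number was 5 of 6 beside 54.6%. With the library set as a term of the model none passed at the adjusted level by limma, 3 had an unadjusted p under 0.05, and 0.255% of all genes passed. The set effect in that fit came only from E60 replicate 1 against E60 replicates 2 and 3. Its E40 to E50 values therefore rest on 1 deep E60 library. SLC4A4, CNNM4 and FAM20B changed sign there, to -0.47, -0.29 and -0.87, while SLC13A5, RELT and FAM20A were at -3.67, -2.67 and -1.86. The latter 2 were further from 0 than without the term. Leaving out E40 replicate 1, E50 replicate 2 or E50 replicate 3 left 1 member past the threshold, beside 1.09%, 0.297% and 0.297% of all tested genes. Leaving out E40 replicate 2 or E50 replicate 1 left 2, beside 17.1% and 17.6%.

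From E50 to E60, 1 of the 6 members passed over 9 libraries (SLC13A5, upward) beside 0.0714% of all tested genes. Over the 8 libraries without E60 replicate 1 all 6 passed, with SLC13A5, RELT and FAM20A higher and SLC4A4, CNNM4 and FAM20B lower at E60, beside 59.1% of all genes, so that most genes passed there. With median-ratio scaling of these 8 libraries the 3 lower members no longer passed and the 3 higher ones did, beside 38.2%. Of the lower members, CNNM4 missed only the limit on the size of the log2 fold change, at -0.91. In the fit with the library set as a term, given next, the E50 to E60 values are those of E60 replicate 1 alone against E50. With median-ratio scaling of the 9 libraries 3 passed, all upward (SLC13A5, RELT and FAM20A), beside 0.413%, and with the library set as a term 1 passed (SLC13A5), beside 0.107%.

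Between E40 and E60 none of the 6 members passed by limma, with 0 at an unadjusted p under 0.05, beside 1.80% of all tested genes over 9 libraries. The count was also 0 by limma-voom on the recovered reads. It was 0 over 8 libraries (6.06% of all genes) and with the library set as a term (5.89%). Both of these fits compare E60 replicates 2 and 3 with E40, as does the fit within the 5 shallow libraries. The log2 fold changes of the members were the same in all of them. Within the 5 shallow libraries, where the stages had like depth, the count was 0, with 0 at an unadjusted p under 0.05 and 0 by limma-voom, beside 1.30%. The log2 fold changes there were 0.63 for RELT, 0.60 for SLC4A4, 0.12 for SLC13A5, -0.22 for FAM20A, -0.37 for CNNM4 and -0.66 for FAM20B, against a median of -0.48 over all tested genes. The SEs of these 6 values were 0.34 to 0.58. Leaving out E60 replicate 3 turned the value of RELT to -0.11, and leaving out E60 replicate 2 turned those of SLC13A5, CNNM4 and FAM20B to -0.14, 0.22 and 0.03. With median-ratio scaling of the 5 libraries the values were 1.11 for RELT, 1.06 for SLC4A4, 0.60 for SLC13A5, 0.25 for FAM20A, 0.09 for CNNM4 and -0.19 for FAM20B. The median of all tested genes was then -0.02. No member passed by limma with this scaling, and 1 had an unadjusted p under 0.05. Over 9 libraries with this scaling none passed either, and 2 had an unadjusted p under 0.05.

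**Figure D2:**
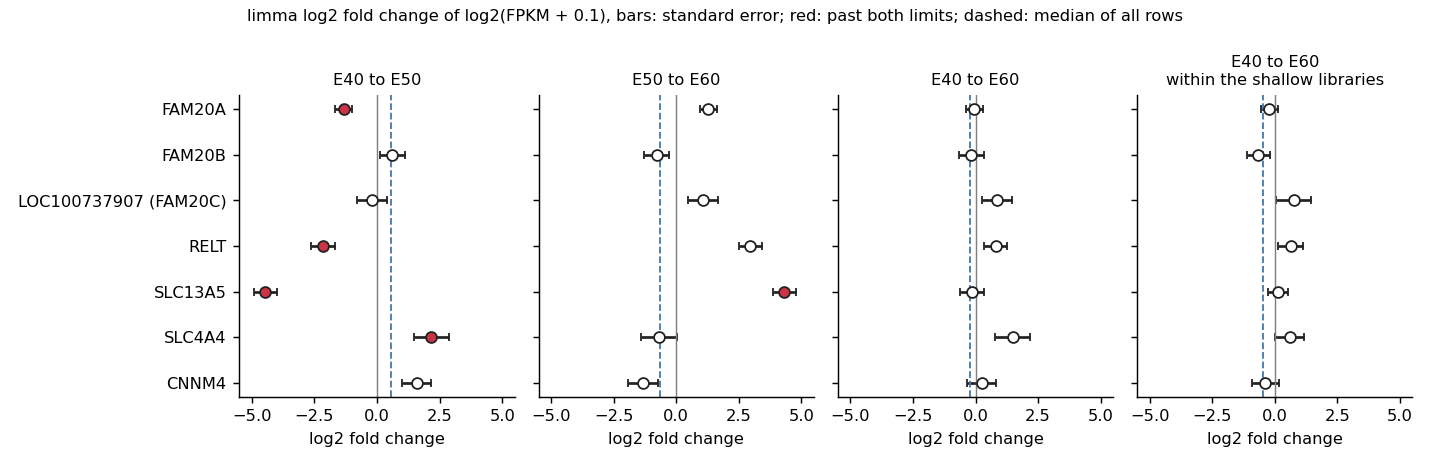
Log2 fold change on the log2(FPKM + 0.1) scale (horizontal axis) with its standard error from limma, for the 6 tested members and LOC100737907 (vertical axis), in each comparison. Red points passed both limits, the grey line is 0 and the dashed line is the median of all tested genes. SLC13A5 lies at -4.46 and 4.32 in the first 2 comparisons and near 0 in the last 2.

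The late bell stage could be set against an earlier stage at like depth in 2 ways that share no library, E60 replicate 1 against the 3 E50 libraries and E60 replicates 2 and 3 against the 3 E40 libraries. The first has 1 library on its late side and is given here with a 95% interval that covers counting error only. The fit with the library set as a term makes this same comparison from E50 to E60, with the same log2 differences. Its count of members is therefore not a separate result, and the spread between deep E60 libraries cannot be measured. In the deep libraries SLC13A5 held 17.3 times its E50 FPKM in E60 replicate 1 (95% interval 13.8 to 21.8), RELT 10.5 times (8.82 to 12.5), FAM20A 3.16 times (2.73 to 3.67) and SLC4A4 2.09 times (1.96 to 2.22). LOC100737907 stood at 2.50 times (2.04 to 3.06) and WDR72 at 1.97 times (1.23 to 3.11). FAM20B at 1.15 times (1.08 to 1.23) and CNNM4 at 0.941 times (0.847 to 1.04) stayed near their E50 level. Of the 6 tested members, 4 exceeded E50 by 1 or more on the log2 scale, beside 4.76% of all tested genes, whose median difference was -0.07. SLC4A4 lay only just past this limit of 1, with a difference of 1.07. SLC13A5 and RELT each stood above 99.8% of all tested genes in this difference.

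The shallow libraries gave other values. The ratio of E60 replicates 2 and 3 to E40 was 1.89 for RELT (95% counting interval 1.35 to 2.66), 1.83 for LOC100737907 (1.01 to 3.41), 1.55 for SLC4A4 (0.998 to 2.44) and 1.09 for SLC13A5 (0.884 to 1.34). It was 0.860 for FAM20A (0.587 to 1.26), 0.869 for CNNM4 (0.508 to 1.48) and 0.723 for FAM20B (0.562 to 0.929). WDR72 had 5 reads at E60 and 1 at E40, a ratio of 5.27 with an interval of 0.590 to 249. For RELT both counting intervals lay above 1, although its shallow ratio rested on E60 replicate 3. For SLC13A5 the counting interval in the shallow set included 1 and lay wholly below that of the deep set. The earlier stage differs between the 2 ratios, and the difference between them was not tested.

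**Figure D3:**
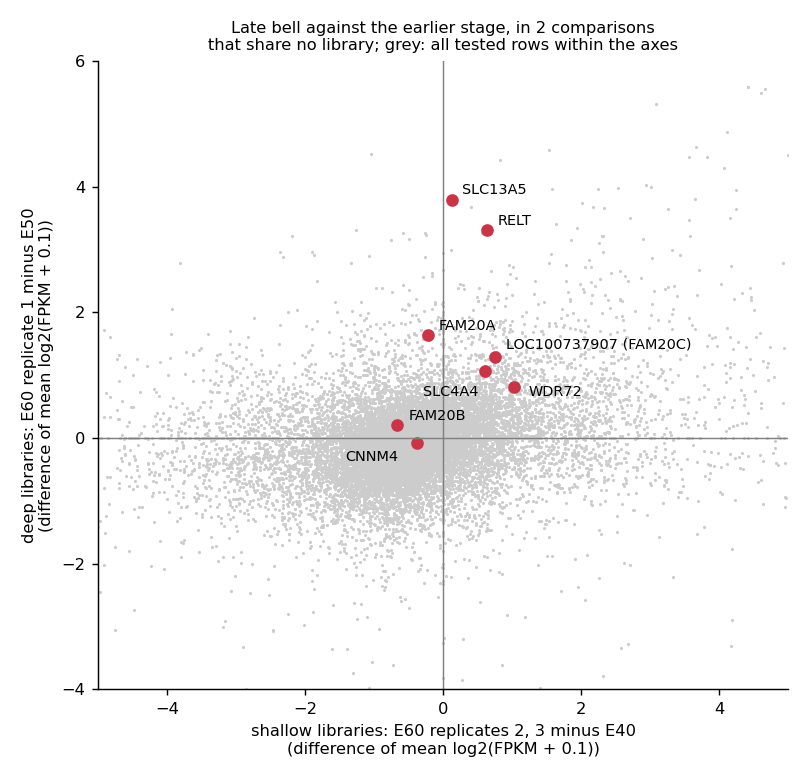
Difference between E60 and the earlier stage in mean log2(FPKM + 0.1), within the shallow libraries (horizontal axis, E60 replicates 2 and 3 minus E40) and within the deep ones (vertical axis, E60 replicate 1 minus E50). Red points are the members and LOC100737907, and grey points all tested genes inside the axes. SLC13A5 lies at 0.12 and 3.79, RELT at 0.63 and 3.30, and CNNM4 and FAM20B in the middle of the grey points.

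Relatives of the members, of which 17 of 22 were tested, were read in the same way. From E40 to E50, 2 rose and 7 fell, beside 38.6% of all tested genes that passed. Their median was -0.44 against 0.55 over all tested genes. From E50 to E60 no relative passed by limma, beside 0.0714% of all tested genes, and 5 had an unadjusted p under 0.05. In E60 replicate 1, 1 relative (DMXL1, of the vesicle acidification machinery, at 1.04) exceeded E50 by 1 or more on the log2 scale and 1 (FAM83A, at -1.39) lay as far below. Of all tested genes, 4.76% lay that far above and 5.17% that far below. The relatives of SLC13A5 and RELT named next were chosen after their values were seen. SLC13A1, a sulfate carrier, held 25.6, 27.4 and 21.0 FPKM at E40, 1.05, 1.44 and 0.887 at E50, and 1.28, 13.8 and 12.1 at E60. SLC13A4, a further sulfate carrier, held 22.8, 24.1 and 22.7 FPKM at E40, 0.349, 0.0681 and 0.105 at E50, and 0.117, 16.0 and 13.0 at E60. RELL2, a relative of RELT, held 14.0, 14.6 and 12.9 FPKM, then 0.658, 0.158 and 0.183, then 0.136, 8.26 and 9.72. All 3 were high in the 5 shallow libraries and low in the 4 deep ones. SLC13A5 and RELT shared the high shallow and low E50 values with them, and differed from them in E60 replicate 1. RELL1, the other relative of RELT, lay between 13.6 and 23.6 FPKM in all 9 libraries, and SLC13A2 and SLC13A3 stayed under 1 FPKM throughout.

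**Figure D4:**
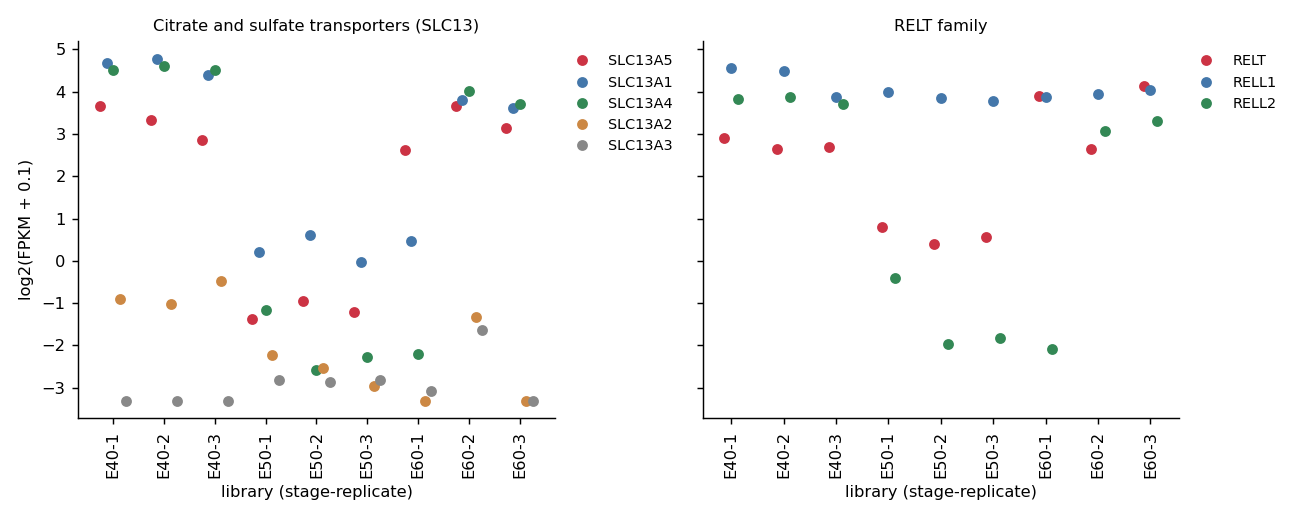
Log2(FPKM + 0.1) (vertical axis) of the SLC13 carriers and of the RELT family in each library (horizontal axis, stage and replicate), with 1 point per gene and library. In E60 replicate 1, SLC13A5 (6.04 FPKM) and RELT (14.7 FPKM) stand with the other E60 libraries, while SLC13A1, SLC13A4 and RELL2 stand with E50.

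The genes around each member in its pathway were counted from lists of related genes. The 20 other enamel defect genes tested included matrix proteins, a laminin chain and transcription factors. From E50 to E60 over 9 libraries, 3 of them rose and none fell, beside 0.0714% of all tested genes that passed. Within the shallow libraries 4 rose and none fell from E40 to E60, beside 1.30%. These were AMBN (ameloblastin, log2 fold change 9.49), ENAM (enamelin, 7.59), AMEL (amelogenin, 7.36) and LAMA3 (a laminin chain of the basement membrane, 2.54). All 4 also lay above E50 in E60 replicate 1, by 11.38, 12.02, 10.50 and 3.98. The highest values of a tested member outside the matrix were 0.63 (RELT) within the shallow libraries and 3.79 (SLC13A5) in E60 replicate 1 against E50. Among 13 secreted substrates of FAM20C tested, 5 rose and none fell within the shallow libraries, beside 1.30% of all tested genes. The largest were the same 3 enamel proteins and DSPP, the dentin sialophosphoprotein (7.95). The difference in E60 replicate 1 against E50 was 1.64 for FAM20A and 1.28 for LOC100737907.

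The kinase relatives and partners of the FAM20 family showed a mixed picture. From E40 to E50, 2 of 9 tested were higher and 2 lower, with a median of 1.17. Of all 19618 tested genes, 3296 rose and 4284 fell, and the median was 0.55. From E50 to E60 none of the 9 passed by limma, beside 0.0714% of all tested genes, and 3 had an unadjusted p under 0.05. In E60 replicate 1, 1 of the 9 exceeded E50 by 1 or more, beside 4.76% of all tested genes. Of 14 enzymes that build the linker and chains in the pathway of FAM20B, 2 rose and none fell from E40 to E50. Of all tested genes, 38.6% passed at this step. The median of the list was 1.10, against 0.55 over all tested genes. Within the shallow libraries none of the 14 passed by limma, beside 1.30% of all tested genes, with 0 at an unadjusted p under 0.05. The median of the list was -0.15 there, against -0.48 over all tested genes. Of 20 genes of ion and pH transport in ameloblasts, the setting of SLC4A4, 6 rose and none fell from E40 to E50, beside 38.6% of all tested genes that passed. The median of the list was 1.29, against 0.55. From E50 to E60 none of the 20 passed by limma, beside 0.0714% of all tested genes, with 6 at an unadjusted p under 0.05. In E60 replicate 1, 4 of the 20 exceeded E50 by 1 or more, beside 4.76% of all tested genes. The 8 binding partners of FAM83H, casein kinase 1 isoforms and keratins, did not pass in any comparison over 9 libraries. Of all tested genes, 38.6% passed from E40 to E50, 0.0714% from E50 to E60 and 1.80% from E40 to E60. Of the 8 partners, 2 had an unadjusted p under 0.05 from E40 to E50 and 0 in the other 2 comparisons.

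Over the 9 libraries, log2(FPKM + 0.1) of the members fell into the same 2 groups. Pearson's r was 0.918 between FAM20A and RELT, 0.890 between FAM20A and SLC13A5 and 0.874 between RELT and SLC13A5. It was 0.912 between FAM20B and CNNM4, 0.870 between CNNM4 and SLC4A4 and 0.707 between FAM20B and SLC4A4. Between the 2 groups it ranged from -0.828 (CNNM4 and SLC13A5) to -0.259 (FAM20A and FAM20B). These values are descriptions over 9 libraries that share stage and depth. The 2 tested genes most like each tested member by the same measure over the same 9 libraries were ISLR2 and SLC15A2, a peptide carrier, for SLC13A5 (both r = 0.986), CYP27A1 (0.959) and the keratin KRT28 (0.956) for RELT, and ABLIM3 (0.972) and RGS7BP (0.961) for FAM20A. For LOC100737907 they were IER3 and PNOC (both 0.961), for SLC4A4 OGFRL1 (0.998) and the calpain inhibitor CAST (0.996), and for CNNM4 FAM98A (0.996) and XPO5 (0.995). For FAM20B they were MKKS (0.995) and ATP9B (0.993). KRT28, like RELT, was lowest at E50, with 0.179, 0.0788 and 0.137 FPKM, and held 2.08 FPKM in E60 replicate 1.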

How the data were processed

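Total RNA of Dm3 germs was sequenced in 9 libraries, 3 per stage, and stages were taken from the deposited labels. After removal of rRNA and a strand-preserving library preparation, the authors aligned the read pairs with TopHat to the pig genome (Sscrofa10.2, per the submitters' processing notes) and deposited 1 FPKM value per gene and library. A scaling between libraries is not given in the sources used here. No genome of that build was used here, so that no positions or sequences are given. The members and gene lists were chosen with earlier results of these data known. By rule, named genes were the members, at most 4 genes per list with the largest change among those that passed from E40 to E60 within the shallow libraries, and the 2 genes most correlated with each member, of which those of WDR72 are not reported here. Other genes of the lists were named after their values were seen.

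Whole reads were recovered from the steps of the FPKM values for 28963 of 28963 entries above 0 (100%, within 0.02 reads), and a floor of 3 reads was used for a count of 0. Intervals were exact at 95% and cover counting error only. The 19618 genes that reached 1 FPKM in 2 or more libraries entered limma 3.58.1 (R 4.3.3) on log2(FPKM + 0.1), a scale that understates the change of low genes. The model had a mean-variance trend and 1 coefficient for each stage, p-values were adjusted by Benjamini-Hochberg over all genes tested, and the limits were 0.05 for the adjusted p and 1 for the size of the log2 fold change. A further fit used the 5 shallow libraries (18426 genes). The code was tested on simulated data. Alternatives were pseudocounts of 1 and 0.01, no filter and a filter in 3 libraries, median-ratio scaling, no fold limit, fits of the compared stages only, the library set as a term, a replicate block, leaving out each library, and limma-voom on the reads. Reads and intervals were computed with scipy 1.17.1, pandas 2.3.3 and numpy 2.4.6 under Python 3.11.15, and plots with matplotlib 3.10.9.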

Additional observations from a re-analysis of the deposited data

How the results depend on the processing

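Each limma value was recomputed under each alternative. Of these recomputed values, 440 kept their direction and their side of the threshold, 16 newly passed, 27 no longer passed and 28 changed sign. The number of the 6 members that changed from E40 to E50 (4) was 0 with the library set as a term, 2 with the replicate block (26% of all genes) and 1 to 5 when a library was left out. From E50 to E60 (1) it was 3 with median-ratio scaling (0.413% of all genes) and 3 with that scaling and without E60 replicate 1 (38.2%), 2 with limma-voom (0.311%), 0 in the fit of the compared stages (0.0341%) and with the replicate block (0.0204%), and 0 to 6 when a library was left out. Same-numbered libraries of different stages did not deviate together (r of -0.515 to 0.109). Whether the numbers pair them cannot be read from this, since the E60 deviations set 1 deep library against 2 shallow ones. The replicate block is given here only. The effect of the library set came only from E60 replicate 1 against the other E60 libraries. With the library set as a term the log2 fold change from E40 to E50 turned to -0.47 for SLC4A4, -0.29 for CNNM4 and -0.87 for FAM20B. From E50 to E60 it turned to 1.07 for SLC4A4 and 0.21 for FAM20B, and from E40 to E60 to -0.37 for CNNM4 and 0.12 for SLC13A5. With median-ratio scaling it turned to -0.046 for FAM20B from E40 to E50, 0.072 for SLC4A4 from E50 to E60, 0.068 for FAM20A from E40 to E60, and 0.087 for CNNM4 and 0.25 for FAM20A within the shallow libraries. With that scaling and without E60 replicate 1 it turned to -0.027 for FAM20B from E40 to E50, and to 0.55 for SLC13A5 and 0.21 for FAM20A from E40 to E60. When a library was left out, values that changed sign ranged from -0.77 to 0.14 for LOC100737907 from E40 to E50. From E40 to E60 they ranged from -0.37 to 0.86 for CNNM4, -0.40 to 0.12 for SLC13A5, -0.22 to 0.13 for FAM20A and -0.66 to 0.42 for FAM20B. Within the shallow libraries they ranged from -0.96 to 0.22 for CNNM4, -0.14 to 0.38 for SLC13A5, -0.11 to 1.38 for RELT and -1.35 to 0.028 for FAM20B. The cause was not tested. The difference of SLC13A5 between E60 replicate 1 and E50 was 2.39 with a pseudocount of 1 and 4.10 with 0.01, alternatives chosen after seeing the data.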

Other observations

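Several further genes of the enamel pathways, chosen here after their values were seen, were high at E60 in the deep as well as in the shallow libraries. SLC9A2, a sodium-proton exchanger from the list of ion and pH transport, held 0.374, 0.334 and 0 FPKM at E40, 0.264, 0.253 and 0.244 at E50, and 16.4, 5.60 and 8.38 at E60. All 3 E60 libraries lay above the other 6. Its log2 difference was 5.55 between E60 replicate 1 and E50 and 4.67 within the shallow libraries (limma with Benjamini-Hochberg adjusted p = 0.0813), so that it exceeded each member in both sets and did not pass in the latter. FAM198B, a relative of the FAM20 kinases, held 5.76, 2.94 and 5.25 FPKM at E40, 10.7, 12.8 and 11.7 at E50, and 57.1, 16.2 and 25.0 at E60, with differences of 2.28 and 2.15.

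Among the other enamel defect genes, ACPT, an acid phosphatase, held 3.59, 4.81 and 3.40 FPKM at E40, 1.96, 1.55 and 2.38 at E50, and 31.7, 7.73 and 17.9 at E60. All 3 E60 libraries lay above the other 6, and the gene did not pass within the shallow libraries.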
